A study of Mus musculus with 2 samples.

Results

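The cells described here are alveolar type 2 (AT2) cells of the mouse lung at E18.5 (E stands for embryonic day), and the question is how they differ among themselves. They were chosen by their own RNA, in 1 library of E18.5 lung: of 12739 barcodes, 12027 passed the quality limits (at least 500 genes, at least 1000 unique molecular identifiers (UMIs) and at most 20% mitochondrial UMIs), and 2277 of these were members (18.9%, exact binomial 95% interval 18.2% to 19.6%). A member had at least 8% of its UMIs from Sftpc, under 0.5% from 7 alveolar type 1 (AT1) genes (Hopx, Ager, Aqp5, Rtkn2, Clic5, Akap5, Pdpn), under 0.05% from 7 antioxidant genes (Cbr3, Srxn1, Gpx2, Gsta3, Sprr1a, Gclm, Nqo1) and no UMI of Ptprc. The Sftpc minimum left 3662 cells, the AT1 maximum 2586, the antioxidant maximum 2418 and the Ptprc limit 2277. Values of these genes describe the choice and support nothing.

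Lung cells were labelled in mice that carry a tamoxifen-inducible Cre recombinase at Cdh16 and a Cre-dependent red reporter, and red cells were sorted within the population stained for CD326 (the product of Epcam). The sample labels write the genotype as Cdh16CreERT2;tdTomatoflox/flox and the series text as Cdh16CreERT2/wt;R26-tdTomatoflox/wt. Pregnant mothers received tamoxifen from embryonic day 12.5. It was injected at 0.1 mg per kg of body weight or fed at 0.4 g per kg of food, and no source used here says which route served which library. The E18.5 library is 1 sample and the library of postnatal day 10 (P10), used here for comparison only, is another, with the same genotype and drug. Its labels give the time as P10 but the tissue as embryonic lung, a conflict that no source used here settles. The labels do not say how many animals were pooled, there is no group without Cre or tamoxifen here, and the red reporter marks cells in which Cdh16-driven Cre was active at some time after tamoxifen, not cells that express Cdh16 when collected. In the members Epcam stood at 409 CPM and Cdh16 at 3.16 CPM. With 1 library per age there is no replicate, so no test was possible, and every interval below covers counting error only, not the difference between animals.

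AT2 cells make, store and secrete pulmonary surfactant, the mixture of lipids and proteins that lowers surface tension in the alveolus, and they can give rise to the thin AT1 cells across which gas is exchanged. Surfactant is packed in lamellar bodies and its hydrophobic proteins SFTPB and SFTPC are cut from larger precursors on the way there. In the mouse, AT2 cells also secrete lysozyme and other proteins of innate defence, and they mature shortly before birth, when the lung must take over breathing. Mice carry 2 lysozyme genes, of which Lyz2 is the one expressed in macrophages and Lyz1 is best known from Paneth cells of the gut.

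The label was checked against markers. Over the members, Lyz1 stood at 10165 CPM, Dlk1 at 4051 CPM, Retnla at 2547 CPM and Hc at 634 CPM, where CPM is UMIs of a gene per 1000000 UMIs other than Sftpc. The sum of 10 AT2 markers without Sftpc was 30962, 42296 and 53174 CPM in the lower, middle and upper Sftpc groups, 3 equal groups of the cells ranked by Sftpc. It was 2111 CPM in 585 E18.5 cells with leukocyte markers and 2223 CPM in 124 E18.5 cells with fibroblast markers, both without Epcam UMIs, which show how much AT2 RNA is found in droplets of other cells. The leukocyte marker sum was 181 to 223 CPM in these groups and 6045 CPM in the leukocyte cells, and the fibroblast sum was 39.6 to 138 CPM against 13991 CPM. Other markers were not low throughout. Club cell markers summed to 1327 to 1808 CPM in the 3 groups against 674 CPM in the leukocyte and 731 CPM in the fibroblast cells, and erythroid markers to 603 to 2076 CPM against 4915 and 446 CPM. Against the leukocyte and fibroblast cells, the sums of the AT2 markers other than Sftpc fit the label. Members were chosen by high Sftpc and those cells by low Sftpc, which may set part of this contrast in advance. The AT2 sum was 28218 CPM in E18.5 cells that missed only the AT1 limit and 33847 CPM in those that missed only the antioxidant limit. It therefore does not set members clearly apart from such cells.

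Cells just inside the Sftpc and AT1 limits had levels near those of cells just outside, and the few cells at the antioxidant limit differed more. The 112 members with 8 to 9% Sftpc held 4900 CPM of Lyz1 and 2382 CPM of Dlk1, and the 81 cells with 7 to 8% held 5113 and 2211 CPM. The 182 members with an AT1 sum of 0.4 to 0.5% held 7270 CPM of Lyz1 and 1690 CPM of Retnla, and the 204 cells at 0.5 to 0.6% held 8142 and 1673 CPM. The 38 members with an antioxidant sum of 0.04 to 0.05% held 3121 CPM of Dlk1, and the 24 cells at 0.05 to 0.06% held 2512 CPM. Of the cells that met every other limit, 917 missed the one on AT1 genes, 153 the one on antioxidant genes and 141 the one on Ptprc, and 246 had 4 to 8% Sftpc.

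The members had a median of 9263 UMIs (1020 to 58858) and 2748 genes. Between the 2 libraries 59 barcodes were shared, 11 of them held by members, out of 12739 and 14503. Doublets were not removed and no caller was run.

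The Sftpc share of a cell's UMIs ran from 8.02% to 29.2% over the members, with a median of 14.1% and a standard deviation over cells of 3.47 percentage points. Ranked by this share and cut into 3 equal groups of 759 cells, the cells had medians of 10.8%, 14.1% and 17.7%. The groups differed in other ways, too. Median UMIs were 10055, 9218 and 8901 from the lower to the upper group, median genes detected were 3047, 2791 and 2560, and the median mitochondrial share was 1.44%, 1.44% and 1.43%. The 7 AT1 genes of the rule took a median of 0.171%, 0.145% and 0.133% of UMIs, so cells near the AT1 limit lay more often in the lower group. Cells with a UMI of Mki67, Top2a, Cdk1, Ccnb1 or Birc5, genes of dividing cells, made up 15.7%, 12% and 8.96%. Cells with Y-linked but no Xist UMIs made up 29.0%, 20.3% and 17.9%, and cells with Xist but no Y-linked UMIs 38.6%, 46.2% and 38.7%. These shares were taken without thinning, at the depths given, and their part in the results was not tested beyond the values within such cells given below. The labels give no sex and no animal, so sex and litter cannot be told apart. With the groups formed within 5 equal bins of depth, the ratio of upper to lower group described below was 1.88 for Lyz1, 1.97 for Retnla and 1.68 for Dlk1.

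Of the 4 markers other than Sftpc, 3 were at least 1.5-fold higher in the upper Sftpc group, and Hc differed little. Lyz1 stood at 7087, 11076 and 13605 CPM in the lower, middle and upper Sftpc group, a ratio of upper to lower group of 1.92 (95% interval 1.90 to 1.94). Retnla, a small secreted protein of the resistin family, stood at 1754, 2619 and 3624 CPM, a ratio of 2.07 (2.02 to 2.11). Dlk1, a membrane protein of fetal tissues that comes from an imprinted locus, stood at 3056, 4142 and 5400 CPM, a ratio of 1.77 (1.74 to 1.80). Hc, the gene of complement component C5, stood at 581, 706 and 629 CPM, so its highest level was in the middle group and its ratio was 1.08 (1.04 to 1.13).

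**Figure D1:**
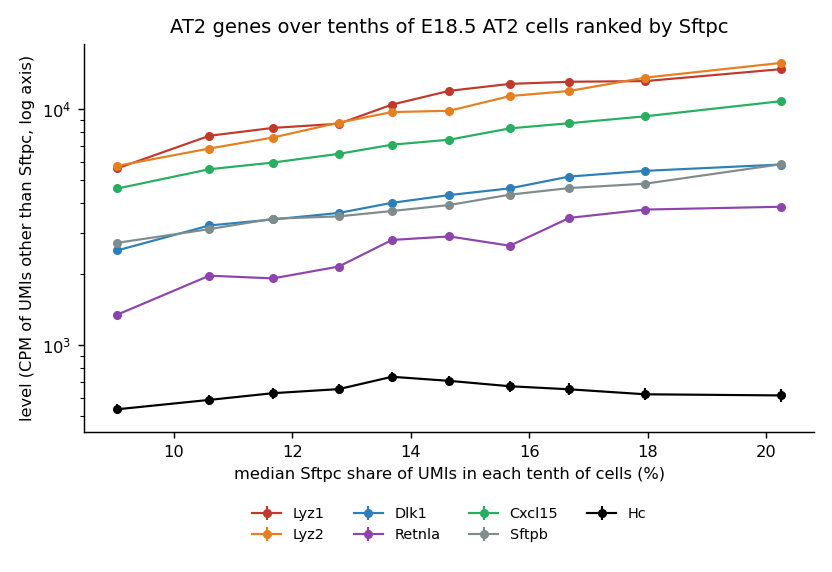
Level of 7 AT2 genes in 10 equal bins of the 2277 E18.5 AT2 cells ranked by Sftpc share. The x axis is the median Sftpc share of UMIs in each bin (%), the y axis the level in CPM of UMIs other than Sftpc on a log axis, and the bars are exact Poisson 95% intervals, mostly smaller than the points. Lyz1 climbs from 5622 to 14788 CPM, and Hc peaks at 735 CPM in bin 5.

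Cut more finely, into 10 equal bins by Sftpc share, the cells showed a graded change. Dlk1 was at 2523 CPM in the lowest bin and 5832 CPM in the highest, with every bin above the one before it. Cxcl15, a secreted chemokine of lung epithelium, went from 4615 to 10820 CPM and was also higher in each bin than in the one before. Retnla went from 1349 to 3863 CPM, with lower values in bins 3 and 7 than in the bin before each. Hc went from 536 CPM in the lowest bin to 735 CPM in bin 5 and 613 CPM in the highest.

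Across all genes, more were higher in the lower Sftpc group than in the upper. Of 5160 genes at 25 CPM or more over the members, 55 were higher in the upper group by at least 1.5-fold (1.07%) and 636 were lower by at least 1.5-fold (12.3%). The median log2 ratio of these genes was -0.17, and 1871 of them had a ratio above 1. With all UMIs as the denominator, Sftpc included, 18 genes were higher and 1070 lower, and the median log2 ratio was -0.29, since this scale lowers the log2 ratio of every gene by the same amount. Without members that had a UMI of the division genes 64 were higher and 641 lower, in members with Xist and no Y-linked UMI 64 and 638, and in those with Y-linked and no Xist UMI 159 and 859. The last set was smaller than the Xist set, 29.0%, 20.3% and 17.9% of the lower, middle and upper group against 38.6%, 46.2% and 38.7%. With fewer cells, more genes can pass 1.5-fold by counting error, so these counts do not compare the sexes.

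**Figure D2:**
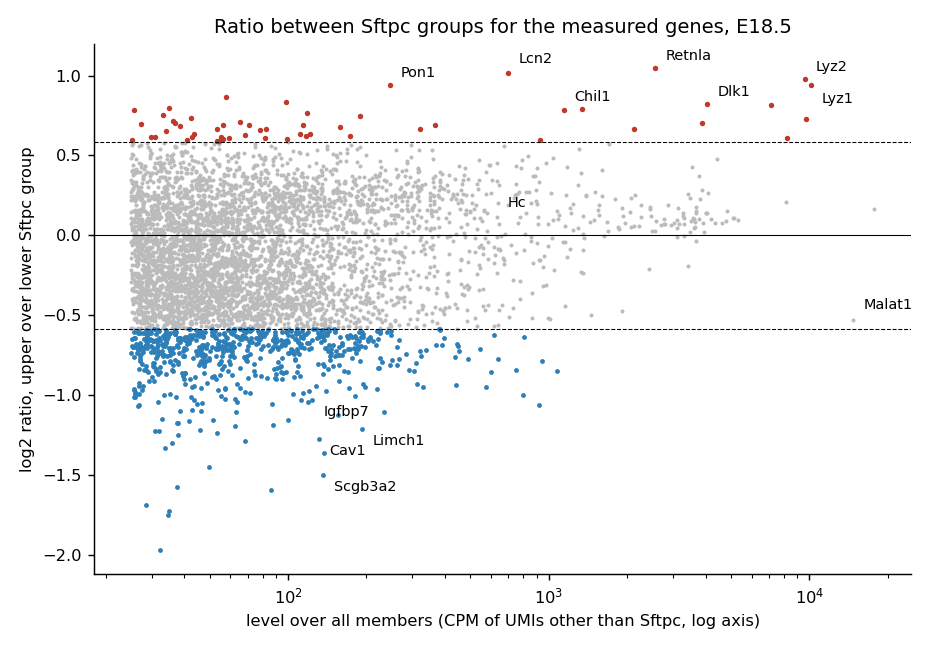
Ratio of upper to lower Sftpc group (y axis, log2) against level over all E18.5 AT2 cells (x axis, CPM of UMIs other than Sftpc, log axis). Each point is 1 of 5160 measured genes, red for the 55 at least 1.5-fold higher in the upper group, blue for the 636 at least 1.5-fold lower, and dashed lines mark that ratio. The higher genes reach 10165 CPM (Lyz1), and the lower genes lie mostly towards the left, at low levels.

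The 15 genes with the largest ratios towards the upper group, among those at 100 CPM or more, were for the most part products that AT2 cells secrete. Defence proteins were Lyz2 (6875, 9713 and 13543 CPM in the 3 groups, ratio 1.97, 1.95 to 1.99), Lyz1, Retnla, Lcn2, Chil1 and Cxcl15. Lcn2, which binds bacterial iron carriers, stood at 489, 708 and 989 CPM, a ratio of 2.02 (1.95 to 2.11). Chil1, a chitinase-like protein, had a ratio of 1.72 (1.67 to 1.78) and Cxcl15 one of 1.76 (1.74 to 1.78). The surfactant proteins Sftpa1 and Sftpb had ratios of 1.66 (1.64 to 1.68) and 1.63 (1.6 to 1.65). Sftpc, whose share defines the groups, had a ratio of 1.89 on the same scale.

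The remaining 7 of the 15 were Dlk1, described above, and 6 genes of other roles. Pon1, a paraoxonase, stood at 177, 251 and 341 CPM, a ratio of 1.92 (1.80 to 2.06). Elovl1, which lengthens fatty acids, had a ratio of 1.70 (1.54 to 1.87). Mid1ip1, a regulator of fatty acid synthesis, had a ratio of 1.61 (1.53 to 1.70). Bex2 had a ratio of 1.73 (1.68 to 1.78) and Smim6 one of 1.68 (1.55 to 1.81). Hspa1a, an inducible heat shock protein, had a ratio of 1.61 (1.46 to 1.78), and 1% of the cells (22 of 2214) held 25.4% of its UMIs when each cell was thinned to 3000 UMIs.

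The 15 genes with the largest ratios towards the lower group held several that are strong in AT1 cells. Cav1, the main protein of caveolae, stood at 185, 110 and 76.6 CPM from lower to upper group, 2.42-fold lower in the upper group (2.18 to 2.69). Ahnak, a very large scaffold protein, stood at 313, 208 and 145 CPM, 2.15-fold lower (1.99 to 2.33). Lmo7, which links actin to cell junctions, stood at 1196, 862 and 572 CPM, 2.09-fold lower (2.01 to 2.18). Col4a4, a chain of basement membrane collagen that AT1 cells make, was 2.23-fold lower (1.98 to 2.52) and Clic5, 1 of the genes of the rule, 2.01-fold lower (1.85 to 2.19). Limch1, Igfbp7, Plxna2, Igf1r, Tacc2, Pard3b, Rab11fip1, Stard13 and Magi1 were 1.93-fold to 2.32-fold lower.

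Scgb3a2, a secretoglobin of airway secretory cells, had the largest ratio of these 15, 220, 80.3 and 77.9 CPM, 2.83-fold lower in the upper group (2.55 to 3.14), and rested on few cells. In cells thinned to 3000 UMIs, 22 of 2214 cells held 32.5% of its UMIs, and 11 cells had 5 UMIs or more. For 12 of the 15 genes of this direction, the level in the lower group was less than 2 times that in the leukocyte or the fibroblast cells of the same library. Of the 15 genes of the other direction, 1 was less than 2 times as high in the upper group as in those cells. The part of RNA from other cells in these ratios was not tested.

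The length of the gene moved with the ratio. Among 5159 measured genes with a length, counted from the first to the last base with introns, 5 equal bins by length had median log2 ratios of 0.17 (the shortest genes, up to 8.02 kb), 0.07, -0.17, -0.34 and -0.49. At least 1.5-fold lower in the upper group were 3.20% of the shortest bin and 32.7% of the longest (from 92.0 kb). The 15 genes named above as higher had a median length of 4.86 kb, and the 15 named as lower 187 kb. Malat1, a long noncoding RNA kept in the nucleus, stood in the same direction, 1.44-fold lower in the upper group (14732 CPM over the members). Neat1, another nuclear RNA, was 1.80-fold lower (1077 CPM over the members). No source used here says if reads in introns were counted, and the part of gene length in these ratios was not tested. Within 5 equal bins of the Malat1 share of each cell, a comparison chosen after seeing the data, 32 genes were higher and 255 lower, and Lyz1, Retnla and Dlk1 had ratios of 1.62, 1.69 and 1.48.

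Summed markers of most other cell types were also higher in the lower group. Summed fibroblast markers stood at 138, 73.3 and 39.6 CPM from the lower to the upper group, endothelial markers at 110, 66.6 and 54.1 CPM, ciliated markers at 136, 60.1 and 59.4 CPM, macrophage markers at 57.0, 31.9 and 33.1 CPM and erythroid markers at 2076, 603 and 1006 CPM. All 7 fibroblast markers, 5 of 6 endothelial, all 6 ciliated, 4 of 7 macrophage and 4 of 6 erythroid markers were at least 1.5-fold lower in the upper group. Contractile cell markers stood at 54.6, 27.2 and 22.3 CPM (6 of 6 lower), mesothelial markers at 140, 99.8 and 77.2 CPM (3 of 4), neuroendocrine markers at 13.4, 3.66 and 2.91 CPM (4 of 5 lower and 1 higher) and club cell markers at 1808, 1327 and 1410 CPM (2 of 5). These counts are to be read against the 12.3% of genes at 25 CPM or more that were lower by as much. Under 10 CPM over the members were 6 of 7 macrophage, 4 of 6 ciliated, 4 of 6 contractile and 5 of 5 neuroendocrine markers. So were 3 of 7 fibroblast, 3 of 6 endothelial, 3 of 4 mesothelial, 2 of 6 erythroid and 1 of 5 club markers. Ratios at such levels rest on few UMIs. At 0 in the members were Ptprc, by the rule, 1 mesothelial and 1 erythroid marker. The summed neutrophil markers differed by less, at 36.5, 33.5 and 36.8 CPM. The summed AT1 markers, 7 of which are genes of the rule, stood at 3633, 2728 and 2250 CPM in the members, 3946 CPM in the leukocyte cells and 1994 CPM in the fibroblast cells. Without the 10% of members that held the largest share of leukocyte, macrophage, endothelial, fibroblast, mesothelial and ciliated markers, chosen after seeing the data, 68 genes were higher and 646 lower.

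Gene lists were read against the median log2 ratio of -0.17 over all measured genes. Of 13 measured genes of secreted defence, 7 were higher by at least 1.5-fold and none lower, with a median log2 ratio of 0.73, where 1.07% of all genes were higher by as much. Of 20 AT2 markers, Sftpa1 and Sftpb among them, 9 were higher and none lower, with a median of 0.53. Both lists hold Lyz1, Lyz2, Retnla, Chil1, Cxcl15 and Sftpa1, so they are not separate evidence. Of 15 surfactant and lamellar body genes, Sftpa1, Sftpb and Napsa were higher, with a median of 0.16. Napsa, a protease that cuts surfactant precursors, stood at 1700, 2187 and 2694 CPM, a ratio of 1.58 (1.55 to 1.62), and Ctsh, another such protease, at 3110, 3566 and 4185 CPM, a ratio of 1.35 (1.32 to 1.37).

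Genes of respiration and translation had small ratios, mostly above 1. Over all measured genes, 1871 of 5160 had a ratio above 1, and the shortest genes (up to 8.02 kb) had a median log2 ratio of 0.17. The part of gene length in the values of these lists was not tested. Of 19 nuclear-encoded respiratory chain genes, 18 had a ratio above 1, none reached 1.5-fold, and the median log2 ratio was 0.24. Ndufa4 had the ratio 1.25 (1.2 to 1.31) and Cox4i1 1.15 (1.11 to 1.19). Of 20 cytosolic ribosomal proteins, 16 had a ratio above 1 and none reached 1.5-fold, with a median of 0.10, which became -0.03 with all UMIs as the denominator. The 11 measured mitochondrially encoded genes had a median of 0.04. Glycolysis genes such as Ldha, at 594, 633 and 739 CPM, had a ratio of 1.24 (1.19 to 1.30), and the 20 measured genes of the hypoxia and glycolysis list had a median of 0.05, with Vegfa alone at least 1.5-fold lower.

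Lipid synthesis genes had ratios on both sides of 1. Of 16 measured genes of fatty acid and phospholipid synthesis, Elovl1 was higher by at least 1.5-fold, none was lower, and the median was -0.07. Fabp5, a fatty acid carrier, had a ratio of 1.39 (1.37 to 1.41), whereas Scd2, a desaturase, had 0.791 (0.756 to 0.828) and Chka, the first enzyme of phosphatidylcholine synthesis, 0.788 (0.752 to 0.826). Fdps, a sterol pathway enzyme, had a ratio of 1.44 (1.30 to 1.6), and the 8 measured sterol genes had a median of -0.01. The 10 measured glycogen genes, from a pathway that feeds surfactant lipid before birth, had a median of -0.06, and none reached 1.5-fold.

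**Figure D3:**
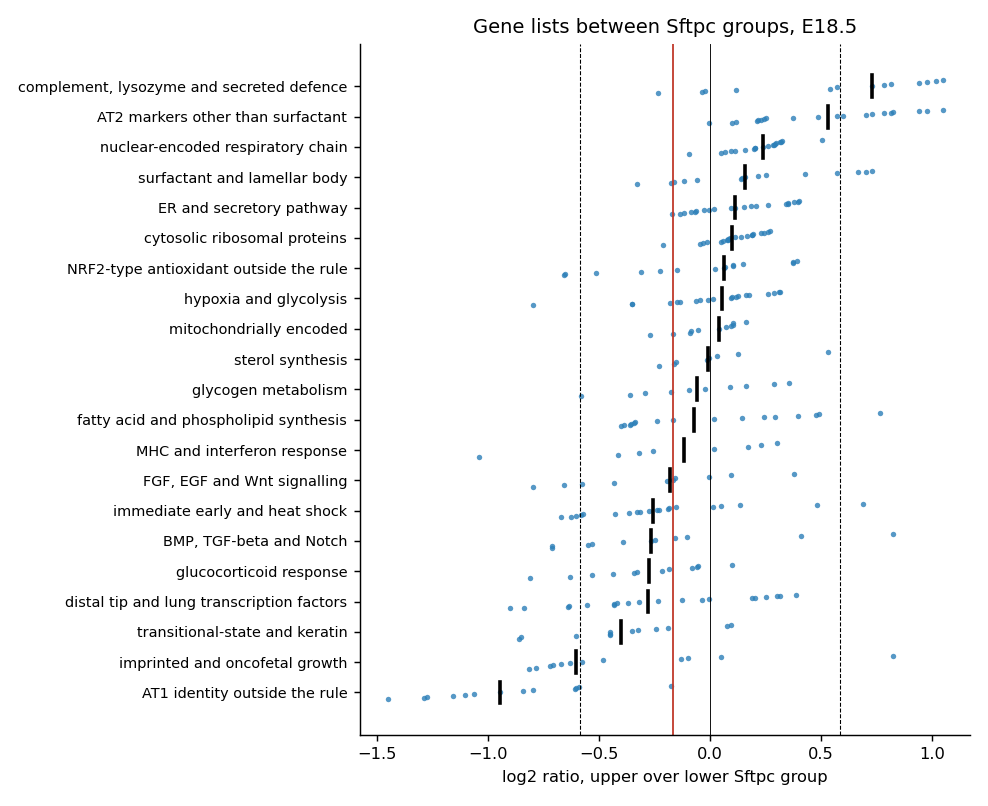
Log2 ratio of upper to lower Sftpc group (x axis) for the measured genes of 21 lists (rows). Points are genes, black bars are list medians, the red line is the median of all 5160 genes (-0.17), and dashed lines mark 1.5-fold. The defence list has the highest median (0.73) and the AT1 list outside the rule the lowest (-0.95).

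Genes of AT1 identity outside the rule stood at the other end. Of 13 measured, 12 were at least 1.5-fold lower in the upper group and none higher, with a median log2 ratio of -0.95, and 12.3% of all genes were lower by as much. Timp3, an inhibitor of matrix proteases, stood at 919, 730 and 513 CPM, a ratio of 0.558 (0.535 to 0.582), and S100a6 at 743, 525 and 385 CPM, a ratio of 0.518 (0.494 to 0.544). Cldn18, a tight junction protein found in both alveolar types, was the exception, with a ratio of 0.885 (0.849 to 0.922). With the groups formed within 5 equal bins of the AT1 share of the rule, chosen after seeing the data, 43 genes were higher and 470 lower, Retnla had a ratio of 1.84, and the list had a median of -0.57. The AT1 limit of the rule moved this median, to -0.32 with a maximum of 0.2% and to -1.37 with one of 1%, where the medians of all genes were -0.15 and -0.12. It was -0.64 with groups formed within 5 bins of depth and -0.60 with an Sftpc minimum of 12%.

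Imprinted and oncofetal genes split. Dlk1 was higher, and Hmga2, Peg3, Plagl1, Cdkn1c, Igf2r and Zdbf2 were at least 1.5-fold lower in the upper group, of 12 measured, with a median of -0.60. Meg3, the noncoding RNA of the same imprinted cluster as Dlk1, stood at 3586, 3595 and 3705 CPM, a ratio of 1.03 (1.02 to 1.05), and Rian, from the same cluster, had a ratio of 0.932 (0.890 to 0.976). Of 20 lung transcription factors, Sox9, Foxp2, Grhl2 and Tead1 were lower (12.3% of all genes were) and none higher, with a median of -0.28. Foxp2 had a ratio of 0.642 (0.606 to 0.679), Foxp1 0.741 (0.710 to 0.773), Cebpd 1.19 (1.13 to 1.25) and Id2 1.15 (1.09 to 1.21).

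Keratins and genes of the transitional state were mostly lower in the upper group. Krt7, Hbegf and Itgb6 were at least 1.5-fold lower, of 12 measured, with a median of -0.40. Krt18 stood at 842, 684 and 616 CPM, a ratio of 0.731 (0.702 to 0.761), Krt8 had 0.799 (0.761 to 0.838) and Lgals3 0.731 (0.694 to 0.770). Areg, a ligand of the EGF receptor, had a ratio of 1.07 (1.04 to 1.1). Of 20 immediate early and heat shock genes, which respond to tissue digestion among other things, Hspa1a was higher and Fosb, Klf2 and Klf6 were lower, a share near the 12.3% of all genes, with a median of -0.26, and Jun had a ratio of 0.852 (0.827 to 0.878).

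The signalling lists had medians near that of all genes, -0.18 for the FGF, EGF and Wnt list and -0.27 for the BMP, TGF-beta and Notch list. The FGF, EGF and Wnt list had 2 of 10 measured genes at least 1.5-fold lower (Egfr and Tcf7l2) and none higher, and the BMP, TGF-beta and Notch list had Dlk1 higher and Smad7 and Tgfbr2 lower of 11. Etv5, a target of FGF signalling, had a ratio of 0.995 (0.913 to 1.08), Nkd1, a Wnt target, 1.30 (1.22 to 1.38), and Bambi, a decoy receptor, 1.33 (1.24 to 1.42). The next 3 counts of lower genes are to be read against the 12.3% of all genes that were lower, and they lie near it. Of 12 glucocorticoid response genes, Klf9 and Cdkn1c were lower. Of 15 antioxidant genes outside the rule, Txnrd1 and Ugdh were lower, and Ftl1 and Txn1 had ratios of 1.29 and 1.31. Of 8 measured MHC and interferon genes, Ifitm3 was lower (87.8, 51.9 and 42.6 CPM). Of the cell division list, 1 of 20 genes was measured, Pcna, with a ratio of 0.892 (0.783 to 1.01).

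Cell by cell, Cxcl15, Sftpb and Sftpa1 followed the Sftpc share more closely than the lysozymes and Retnla did. For this, 2214 members were thinned to 3000 UMIs other than Sftpc each (63 shallower ones left out), and Pearson's r was taken over cells on square roots of counts for 1588 genes at 100 CPM or more. Cells of 1 library share its chemistry and background RNA, so r is a description and has no p. With the Sftpc share, r was 0.51 for Cxcl15, 0.45 for Sftpb, 0.43 for Npc2, 0.41 for Sftpa1 and 0.36 for Napsa, and 90% of all genes lay between -0.14 and 0.12. It was 0.36 for Dlk1, 0.21 for Retnla, 0.14 for Lyz1 and 0.02 for Hc. At the other end stood Malat1 (-0.39), Neat1 (-0.28), Lmo7 (-0.28), Atxn1 (-0.28) and Nckap5 (-0.27).

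The markers had partners of their own. Dlk1 varied most with Cxcl15 (r 0.35), Trf (0.33), Lcn2 (0.30), Bex2 (0.26) and Meg3 (0.25), and against Malat1 (-0.33). Retnla varied most with Cxcl15 (0.29), Lcn2 (0.27), Lyz2 (0.25), Dlk1 (0.24) and Chil1 (0.23), and against Ctsh (-0.15). Hc had weak partners, Meg3 (0.16), Retnla (0.14) and Col6a1 (0.14), and Lyz1 had Cxcl15 (0.19), Pon1 (0.16) and Nupr1 (0.15). In sparse counts such weak values of r are no finding.

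The main axes of variation took small parts of it. The first principal component of these 1588 genes held 2.24% of the variance, and ran from Eef1a1, Fau, Naca, Npc2 and Tpt1, mostly genes of protein synthesis, to Malat1, Neat1, Alcam, Ank3 and Pde4d, with an r of 0.52 with the Sftpc share and -0.12 with the log of depth. The second held 0.993% and ran from Cxcl15, Slc34a2 (a phosphate carrier of AT2 cells), Sftpa1, Retnla and Meg3 to an end that held Actg1 (a cytoplasmic actin), Phlda1 and Ccn1, among others. The third held 0.704% and set Tmsb4x, Ctsh, Sftpd, Sftpb and Sftpa1 against Fau, Tpt1, Zfas1, Naca and Gas5.

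The spread between cells beyond counting noise was greatest for the lysozymes and Retnla among the markers. It is given as the excess coefficient of variation (CV), the CV left after the Poisson part is taken off. Its median was 0.41 over the 1588 genes. It was 1.24 for Lyz1 (rank 21 of 1474 ranked genes), 1.18 for Retnla (rank 27) and 1.13 for Lyz2 (rank 34), against 0.54 for Dlk1, 0.50 for Hc, 0.47 for Sftpa1, 0.42 for Cxcl15 and 0.35 for Sftpb. Lyz1 ran from 0 to 296 UMIs per 3000 with a median of 11 and middle 50% of cells from 2 to 54, and Retnla from 0 to 99 with a median of 5. Dlk1 ran from 0 to 52 with a median of 12 and middle 50% from 7 to 17, so both the lysozymes and Retnla were spread over a wider range than Dlk1 relative to their medians.

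The highest values belonged mostly to genes detected in a minority of the thinned cells, with Scgb1a1 and Apoe as exceptions. Scgb3a2 had 5.59, Hspa1a 2.92, Scgb1a1 2.13, Cd74 1.82, Cxcl2 1.82 and Ppargc1a 1.82. Slit3, Pmvk, Col12a1, Anxa1, Cox6a2, Trps1, Zfc3h1, Apoe and Filip1 had 1.34 to 1.80. Ppargc1a, a coactivator of mitochondrial genes, reached 23 UMIs in a thinned cell, and Cd74, a chaperone of MHC class II, 12. Scgb1a1, the main secretoglobin of club cells, had 5 or more UMIs in 21.1% of cells and up to 245. It stood at 1349 CPM in the members and 8349 CPM in the cells with 4 to 8% Sftpc. Cxcl2 stood at 172 CPM in the members and 8680 CPM in the leukocyte cells. Apoe stood at 413 CPM, against 3972 CPM in the leukocyte and 5822 CPM in the fibroblast cells. Others, such as Ppargc1a (163 against 17.8 and 10.8 CPM), were higher in the members than in both. The part of RNA from other cells in this spread was not tested. The 105 pairs of these 15 genes had a median r of -0.003, and the highest was 0.28 for Scgb3a2 and Scgb1a1. Most of these genes have sparse counts (Slit3 averaged 0.316 UMIs per thinned cell), which holds r near 0. The values of r therefore cannot say if the same cells were high in several of the genes.

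The 2 lysozyme genes lie next to each other and varied separately over these cells. Lyz1 and Lyz2 are both on the minus strand of chromosome 10, 5475 bases apart, and their transcripts are 92.0% identical over 1317 aligned positions, with 93.8% over the last 300 bases, where the reads of a 3' kit fall. Their promoter windows, from 250 bases before to 50 after the start, are 81.9% identical. The bases before the start are shown because the 2 lysozyme genes share long stretches there, from RefSeq on GRCm38.p6: Lyz1 at chr10:117292869-117293118 and Lyz2 at chr10:117282273-117282522, both minus strand, and Retnla, on the plus strand at chr16:48842359-48842608, for comparison. Capitals mark letters of the NKX2-1 consensus, CAAGTG in the lysozyme genes and CTCAAG in Retnla. Of 27025 windows of 300 bases, 13.5% hold CAAGTG and 16.2% CTCAAG on either strand, so a match is a description of these letters and no binding site.
Lyz1: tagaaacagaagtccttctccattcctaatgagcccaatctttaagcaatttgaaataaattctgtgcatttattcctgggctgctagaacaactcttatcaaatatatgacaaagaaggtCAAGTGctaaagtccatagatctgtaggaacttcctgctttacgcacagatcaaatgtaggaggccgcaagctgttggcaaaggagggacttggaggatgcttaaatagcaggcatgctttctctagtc
Lyz2: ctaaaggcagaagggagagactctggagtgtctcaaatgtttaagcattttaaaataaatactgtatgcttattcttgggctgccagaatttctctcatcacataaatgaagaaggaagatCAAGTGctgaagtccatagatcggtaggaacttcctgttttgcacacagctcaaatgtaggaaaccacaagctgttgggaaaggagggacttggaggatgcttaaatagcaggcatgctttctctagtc
Retnla: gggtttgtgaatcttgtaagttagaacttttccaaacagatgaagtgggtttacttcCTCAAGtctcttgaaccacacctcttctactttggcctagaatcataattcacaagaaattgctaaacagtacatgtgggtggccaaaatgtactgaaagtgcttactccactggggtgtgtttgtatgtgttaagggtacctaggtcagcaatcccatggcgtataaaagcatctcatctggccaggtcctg

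The longest stretch shared without a change by Lyz1 and Lyz2 here is 50 bases, and each holds 1 CAAGTG.

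The lysozymes were both present in part of the cells, and each alone in others. A cell was called low with under 5 UMIs and high with 20 or more of 3000, limits chosen after seeing the data, so the classes are ranges and not cell types, and no test goes with them. Lyz1 was high in 44.1% of 2214 cells and low in 42.1%, with 13.8% between. Lyz2 was high in 49.6% and low in 32.4%, with 18% between. High cells held a median of 59 UMIs of Lyz1 or 48 of Lyz2, and they held 92.7% of all Lyz1 UMIs and 91.6% of all Lyz2 UMIs. The low cells held a median of 2 UMIs, and of 108 fibroblast cells thinned alike, the median was 1 and 1 cell (0.926%) had 5 or more UMIs of each gene. A Lyz1 UMI was found in 94.1% of members against 72.2% of the fibroblast cells, all thinned to 3000 UMIs. Before thinning it was found in 98.8% of members, and median depths were 9263 UMIs in members and 4788.5 in these fibroblast cells.

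The shares of cells by both genes lay near the products of the single shares. The product lay above the counting interval for cells high in both and below it for cells with Lyz2 alone. High in Lyz1 and low in Lyz2 were 338 cells (15.3%, 13.8% to 16.8%), where the product of the 2 shares is 14.3%. High in Lyz2 and low in Lyz1 were 514 cells (23.2%, 21.5% to 25%; product 20.9%). High in both were 436 cells (19.7%, 18.1% to 21.4%; product 21.9%), and low in both 294 cells (13.3%, 11.9% to 14.8%; product 13.6%). The median total of UMIs was 9454 and 9214 in the cells with 1 lysozyme and 9929 in those high in both. Over all cells r was -0.11. With limits of 3 and 30 UMIs, the shares in this order were 7.59%, 11.7%, 13.5% and 7.59%, fewer in each case since more cells lay between the limits.

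Cells that held at least 10 lysozyme UMIs fell at both ends and in the middle of the Lyz1 share. Of 1855 such cells, 29.8% had under 10% of their lysozyme UMIs from Lyz1 and 21.9% had 90% or more. The bins between ran from 3.61% (20 to 30%) to 10.2% (50 to 60%). In the cells high in Lyz1 and low in Lyz2, Lyz2 averaged 2.23 UMIs beside 72.7 of Lyz1, and in cells low in both it averaged 1.68 UMIs. Reads that fit both genes equally well cannot be assigned to either, and no source used here says how they were treated.

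**Figure D4:**
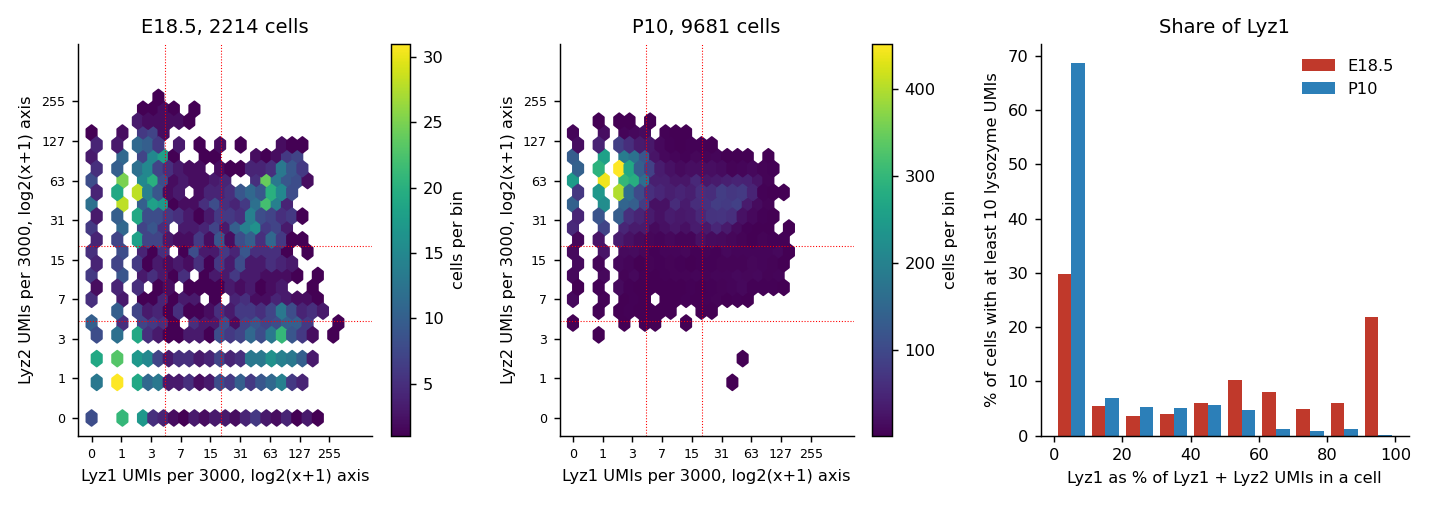
Lyz1 and Lyz2 in single cells thinned to 3000 UMIs other than Sftpc. Left and middle panels, UMIs of Lyz1 (x axis) and Lyz2 (y axis) on log2(x+1) axes, shaded by cells per bin, for 2214 AT2 cells at E18.5 and 9681 cells chosen by the same limits at P10; dotted lines mark 5 and 20 UMIs. Right panel, percent of cells (y axis) by the Lyz1 share of lysozyme UMIs (x axis); E18.5 cells gather at both ends and P10 cells at the Lyz2 end (68.7% of cells under 10% Lyz1).

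Cells with Lyz1 alone and cells with Lyz2 alone were otherwise alike in nearly all genes. Of 1584 genes at 100 CPM or more, 4 differed by at least 1.5-fold (0.253%), all higher in the Lyz1 cells: Scgb3a2 (227 against 98.6 CPM, ratio 2.30), Hbb-bt (1.72), Hbb-bs (1.65) and Hba-a1 (1.5). These are a secretoglobin that few cells hold and haemoglobins, which are among the erythroid markers. The source of their UMIs was not tested. In 90% of the genes the ratio lay between 0.870 and 1.12. Sftpb had a ratio of 0.974 (0.951 to 0.996), Dlk1 0.952 (0.931 to 0.973), Cxcl15 0.923 (0.907 to 0.938) and Hc 0.893 (0.843 to 0.947). Retnla was the marker that differed most, at 2256 CPM in the Lyz1 cells and 3126 CPM in the Lyz2 cells, a ratio of 0.722 (0.701 to 0.743). The median Sftpc share was 14% and 14.4%, and cells with Xist but no Y-linked UMIs made up 40.2% and 41.2%.

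Cells high in both and low in both differed in more genes, 20 of 1569 (1.27%), with 17 higher and 3 lower in the former. Higher were Pon1 (361 against 141 CPM, ratio 2.56, 2.27 to 2.89), Retnla (3431 against 1667 CPM, ratio 2.06), Gdpd2 (2.00), Col6a1 (1.87), Ahcyl2 (1.75), Spink5 (1.73), Col6a2 (1.68), Scgb3a2 (1.67) and Chia1 (1.62), and, at 1.51 to 1.57, Nupr1, C6, Lcn2, Scgb1a1, Chil1, Gm39094, Hc and Pmvk. Hc, which had a ratio of 1.08 between the Sftpc groups, was at 724 against 474 CPM here (ratio 1.53, 1.42 to 1.64). Cdkn1c (ratio 0.564), Cd74 (0.595) and Rasl11a (0.612) were lower, and Sftpb (1.08) and Dlk1 (1.19) differed less. The 2 sets had median depths of 9929 and 8083 UMIs and median Sftpc shares of 14.9% and 14%.

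With the Sftpc share, both the part of cells high in a lysozyme and the amount in them changed. Lyz1 was high in 38.0%, 47.3% and 46.7% of cells in the lower, middle and upper Sftpc group, with a median of 42, 63 and 75 UMIs in the high cells. Lyz2 was high in 42.8%, 51.0% and 54.7%, with medians of 36.5, 45 and 63 UMIs. The share of cells low in Lyz1 was 43.6%, 39.9% and 42.8% in the 3 groups, so from the lower to the upper group it changed less than the amount in the high cells. Retnla, with 10 UMIs as its limit, was high in 19.9%, 30.3% and 40.5% of cells. The medians in its high cells were 14, 17 and 18 UMIs. A median taken only over cells above a limit is held near that limit, and the lysozymes had another limit. For Retnla these values therefore cannot say if the part of cells or the amount changed more.

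The same limits at P10 chose 9831 of 14086 cells (69.8%), whose Sftpc share had a narrower spread (standard deviation 2.60 percentage points, median 14.8%). Dlk1 stood at 5.46 CPM there, against 4051 CPM at E18.5, and Retnla at 89.6 against 2547 CPM. Lyz1 stood at 3363 against 10165 CPM, Lyz2 at 19135 against 9623 CPM and Hc at 1707 against 634 CPM. Lyz2 was high in 94.3% of 9681 thinned P10 cells and Lyz1 in 17.7%, and 64.4% of cells were high in Lyz2 and low in Lyz1 (2 cells were the reverse). These are differences between 2 libraries, and age cannot be told apart from library. The P10 background was higher for Lyz2, with a median of 7 UMIs in 96 fibroblast cells thinned alike, of which 88.5% had 5 or more. The low limit of 5 UMIs therefore cannot show P10 cells without Lyz2 of their own, and 9 of the P10 cells were low in it. High in Lyz1 with Lyz2 between the limits were 227 P10 cells (2.34%), with a mean of 12.6 UMIs of Lyz2.

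Between the upper and the lower Sftpc group at P10, fewer genes differed, 6 higher (0.109%) and 85 lower (1.54%) of 5513, in a library with 103983884 UMIs in the members against 21226059. The P10 groups also lay closer in Sftpc itself. Its ratio of upper to lower group was 1.57 at P10 and 1.89 at E18.5, so the 2 splits are not of like size. Of 4648 genes measured at both ages, 45 were higher at E18.5, and 3 of them (6.67%) were also higher at P10, Pon1, Scgb1c1 and Bex2, which are 60% of the 5 higher at P10. Lower at E18.5 were 556, of which 33 (5.94%) were lower at P10, 55% of 60. None was at least 1.5-fold higher at one age and at least 1.5-fold lower at the other. Of the 45, 42 had a P10 ratio above 1, and of the 556, 520 had one below 1, where 55.0% of all genes measured at both ages had a P10 ratio below 1. Across genes, which are not independent replicates, the log2 ratios of both ages had r = 0.69.

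**Figure D5:**
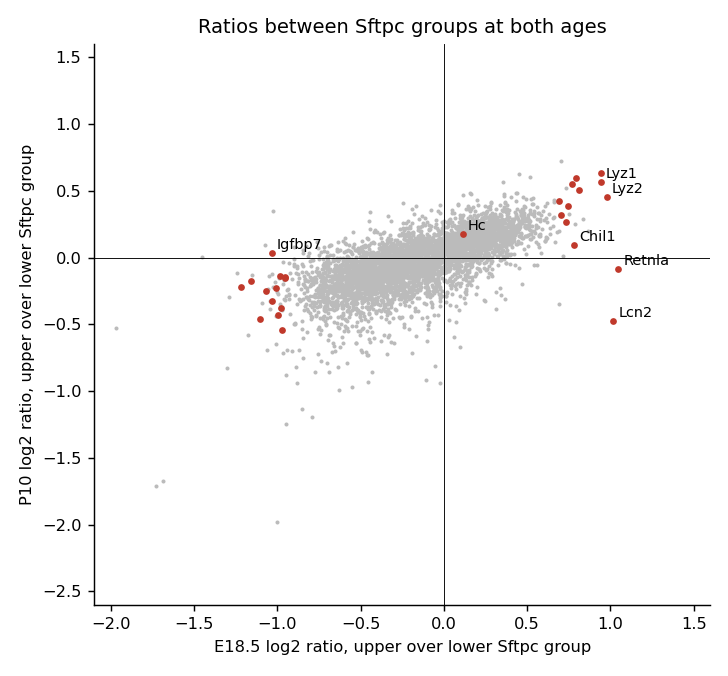
Log2 ratio of upper to lower Sftpc group at E18.5 (x axis) and at P10 (y axis) for genes measured at both ages. Each point is a gene, red for those named in the text among the markers and the 15 largest ratios each way. Lcn2 and Retnla, with E18.5 ratios of 2.02 and 2.07, stand below 0 on the P10 axis, at -0.48 and -0.08.

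Of the 15 genes named as higher, 13 were measured at P10, and 11 of them had a ratio above 1 there. Lyz1 had a P10 ratio of 1.48, Lyz2 1.37, Cxcl15 1.42, Elovl1 1.46 and Sftpb 1.25, smaller than at E18.5 in each case. The ratio of Sftpc between its own groups was smaller at P10, too (1.57 against 1.89). Lcn2 (0.718) and Retnla (0.944) were the exceptions. For Retnla this depended on the measure, as thinned P10 cells had a mean of 0.260 UMIs in the lower and 0.272 in the upper group. Of the 15 named as lower, 13 were measured, 12 had a ratio below 1 and none reached 1.5-fold. Both counts are to be read against the 55.0% of all genes below 1. Against a median log2 ratio of -0.04 over all genes measured at P10, the AT1 list outside the rule had one of -0.23 with 1 of 13 genes lower, and the defence list one of 0.09 with none higher and 1 lower of 14.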

How the data were processed

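Per the file headers, the values are raw UMI counts for each gene and barcode, deposited by the authors from Cell Ranger 7.0.1. The submitters' processing notes name mm10 and Seurat 4.0.0, the latter without its role. Per the labels' protocols, cells were captured with a droplet kit for transcript 3' ends, and 32285 genes are listed. Software was Python 3.11.15 (numpy 2.4.6; scipy 1.17.1; pandas 2.3.3), Biopython 1.88 for sequence alignment and matplotlib 3.10.9. Members, lists and markers were chosen with earlier results of these data known. For each Sftpc group, the sum of a gene was divided by that of all UMIs except Sftpc (CPM). Genes at 25 CPM or more were measured, and a 1.5-fold ratio counted as a difference, with no test, since each age is 1 library. Levels have exact Poisson intervals, ratios exact conditional binomial intervals and shares exact binomial (Clopper-Pearson) intervals, all at 95%. Spread and r used cells thinned to 3000 UMIs. The functions were tested on simulated data. Named genes were the 5 given markers, the 15 largest ratios each way at 100 CPM or more, the 15 of largest excess CV, the 5 highest and lowest r with each marker, the leading genes of 3 components, and up to 4 members of each list by level; gene models without a name and those of haemoglobin, ribosome, mitochondrion and sex chromosomes (Xist, Y-linked) were left out of the ranking. Other genes, list members beyond those 4, all genes that differ between lysozyme classes and Clic5 as a gene of the rule were named for completeness after their values were seen. The lysozyme classes were set after the data were seen. The alternatives were other denominators, other cell limits, other splits and other thresholds.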

Additional observations from a re-analysis of the deposited data

Results flagged for a closer look

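Some named genes measured at both ages had a ratio between the upper and the lower Sftpc group on opposite sides of 1 at the 2 ages, with both intervals clear of 1. The largest change was that of Lcn2, with a ratio of 2.02 at E18.5 and 0.718 at P10 (0.712 to 0.724). Retnla had a ratio of 2.07 at E18.5 and 0.944 at P10 (0.899 to 0.991), where it stood at 89.6 CPM over the cells. Areg went from 1.07 at E18.5 to 0.627 at P10, Cebpd from 1.19 to 0.800 and Fth1, a ferritin chain, from 1.07 to 0.956. In the other direction, Cldn18 went from 0.885 at E18.5 to 1.25 at P10, Scd2 from 0.791 to 1.24, Hsp90b1, a chaperone of the endoplasmic reticulum, from 0.922 to 1.1, Slit3 from 0.765 to 1.08, Insig1, a regulator of sterol synthesis, from 0.851 to 1.06 and Fgfr2, a receptor of FGF ligands, from 0.897 to 1.05. Hspa1a (1.61 and 0.730) also lay on both sides but was under the minimum of 25 CPM at P10. With 1 library per age, the difference between ages was not tested for any of them.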

How the results depend on the processing

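No paired analysis was possible because each age is 1 library and no result comes from a test. The planned removal of members with 2 or more UMIs of other cell types was not run as a comparison, since it left 16 of 2277 members. The 55 genes higher in the upper Sftpc group became 18 with all UMIs as denominator, 119 with thinned cells, 155 with 5 groups in place of 3, 23 with an Sftpc minimum of 12%, 92 with an AT1 maximum of 1%, 159 in members with Y-linked and no Xist UMIs, 32 within 5 bins of the Malat1 share (chosen after seeing the data), 108 and 24 at level minimums of 10 and 100 CPM, and 681 and 2 at folds of 1.2 and 2. The 636 lower genes became 1070 with all UMIs, 397 within 5 bins of depth, 1128 with 5 groups, 284 at 12% Sftpc, 255 within 5 bins of the Malat1 share, 1039 and 193 at 10 and 100 CPM, and 2139 and 55 at folds of 1.2 and 2. Of the 55, 36 remained within 5 bins of depth and 26 within 5 bins of the Malat1 share, and of the 636, 360 and 244. The 2277 members became 2482 and 1639 at Sftpc minimums of 5% and 12%, 1600 and 3077 at AT1 maximums of 0.2% and 1%, and 1944 at an antioxidant maximum of 0.02%. The causes of these changes were not tested. For Lyz1, Retnla, Lyz2 and Dlk1 the ratio stayed above 1 under every alternative run, and for Hc it lay between 0.900 and 1.36. The bins of the AT1 and Malat1 share, the removal of the 10% highest in other markers and all alternatives of the lysozyme classes were chosen after seeing the data. Depth limits single cells, in which Hc had a median of 2 UMIs of 3000.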
